A study of Mus musculus with 6 samples.

Results

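The cellular genes for repairing damaged DNA, and among them those that act on the DNA crosslinks cisplatin makes, were followed in macrophages that had been in culture with tumour cells exposed to that drug. The group consisted of 44 named genes, out of 54532 genes listed in the expression table. Its members were taken by symbol from nucleotide excision repair, the Fanconi anaemia pathway, homologous recombination, mismatch repair, end joining, translesion synthesis, damage signalling, single-strand break repair and direct reversal, and each symbol matched exactly 1 row. RNA was sequenced from bone marrow-derived macrophages (BMDMs), which the study's methods call monocytes and take from the marrow of C57BL/6 mice. In 3 libraries (the cisplatin group) the BMDMs had shared their culture with cells of ID8, an ovarian cancer line of the mouse, that had first received 40 µM cisplatin, and in 3 libraries (the PBS group) with ID8 cells that had first received phosphate-buffered saline. The comparison asks how macrophages differ after culture beside tumour cells that had met cisplatin. No cell sorting between co-culture and RNA extraction is described, and although the study's sequencing methods speak of biological replicates, nothing says whether these libraries came from separate cultures or mice, so p-values measure only the spread between these libraries.

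Cisplatin binds DNA bases and joins them within a strand or between the strands. Nucleotide excision repair cuts out a short stretch around a bulky adduct, the Fanconi anaemia proteins unhook links between the strands, translesion polymerases copy past what remains, and homologous recombination mends the resulting break from an intact sister copy. Mismatch repair proteins also recognise platinum adducts, while end joining proteins rejoin broken ends without a template. In dividing cells many of these genes are transcribed together with the replication machinery.

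Levels are given as deposited, in FPKM, that is sequenced fragments scaled to the length of the gene and to the size of the library. The reads recovered from these values summed to between 15776238 and 17924686 per library. All 14 macrophage markers were detected and higher in the cisplatin group, with a summed level of 4595 to 4772 FPKM against 1841 to 1863 FPKM. The ID8 and mesothelial markers, of which Krt5 was at 0 in every library, had a summed level of 237 to 259 FPKM against 1289 to 1391 FPKM, and 9 of the 10 that were tested were lower in the cisplatin group at an adjusted p under 0.05 and 1 was higher. Neutrophil and precursor markers rose in 9 of 10 cases (summed level 9069 to 9329 against 4805 to 4974 FPKM), as did 6 of 7 tested markers of T and B lymphocytes (442 to 453 against 195 to 203 FPKM). Of the 4 tested erythroid markers, 0 passed with limma, adjusted or not, and 1 (Hbb-bs) with limma voom, and all 4 overlapped between the groups in FPKM (summed level of the whole list 72.2 to 77.0 against 65.4 to 69.4 FPKM). Marker genes of some cells other than macrophages therefore moved with the group. The part of these markers in the changes below was not tested, and in such bulk RNA fewer cells of a type and less RNA per cell cannot be told apart.

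The repair genes were modestly expressed and changed little on the scale used for testing. Their mean level over the 6 libraries ran from 1.095 FPKM for Fancc to 23.9 FPKM for Msh6, with a median of 3.72 FPKM against 7.27 FPKM over all genes tested, and 40 of the 44 lay below the median gene. All 44 passed the requirement of at least 1 FPKM in at least 3 libraries. Rad51c passed through its 3 PBS libraries alone, so that of genes at its level only those higher with PBS could pass in that way, and Fancc had 5 libraries at 1 FPKM or more. A gene was called when its adjusted p was under 0.05 and its log2 fold change on log2(FPKM + 1) was at least 1 in size (limma, Benjamini-Hochberg over 13441 genes). None of the 44 members was called, against 15.9% of all genes tested. Without adjustment of the p-values none reached that fold either, although 26 had a p under 0.05. The median size of the members' log2 fold change was 0.21, against 0.39 over all genes tested. Both are on log2(FPKM + 1), which shrinks changes at low levels, where most members lay. The part of this in the difference was not tested. In FPKM, 2 members had a cisplatin mean under 50% of the PBS mean and 0 had one over 200%.

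By the adjusted p alone, 9 members were higher and 15 lower in the cisplatin group, where 32.9% of all genes tested were higher and 35.1% lower. The remaining 20 did not pass. Without cisplatin replicate 3, 5 members were higher and 14 lower. Those 24 members make up 54.5% of the group, against 68.0% of all genes. In 27 members, or 61.4%, every library of one group lay above every library of the other, as in 72.4% of all genes tested. The median log2 fold change of the members was -0.057, against -0.0011 over all genes, and its sign was positive with quantile normalisation (0.077), voom (0.012), scaling by the recovered reads (0.0065) and a requirement of 5 FPKM in 3 libraries (0.0054). In these settings the median over all genes tested was 0.10, 0.085, 0.073 and 0.019, above that of the members in each. The balance of higher and lower calls depended on the scaling, since quantile normalisation gave 12 higher and 8 lower, and scaling by the recovered reads, an alternative chosen after seeing the data, 11 and 9. All genes tested shifted the same way, from 4424 higher and 4721 lower to 5349 and 4006 with quantile normalisation and to 5130 and 4201 with scaling by the recovered reads. The 95% interval of the log2 fold change on log2(FPKM + 1) stayed under 1 in size for 42 members, the exceptions being Mgmt and Ddb2. That scale shrinks changes at low levels, so these intervals do not bound the change in FPKM. Rad51c, among the 42, had a cisplatin mean at 41.7% of its PBS mean.

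**Figure D1:**
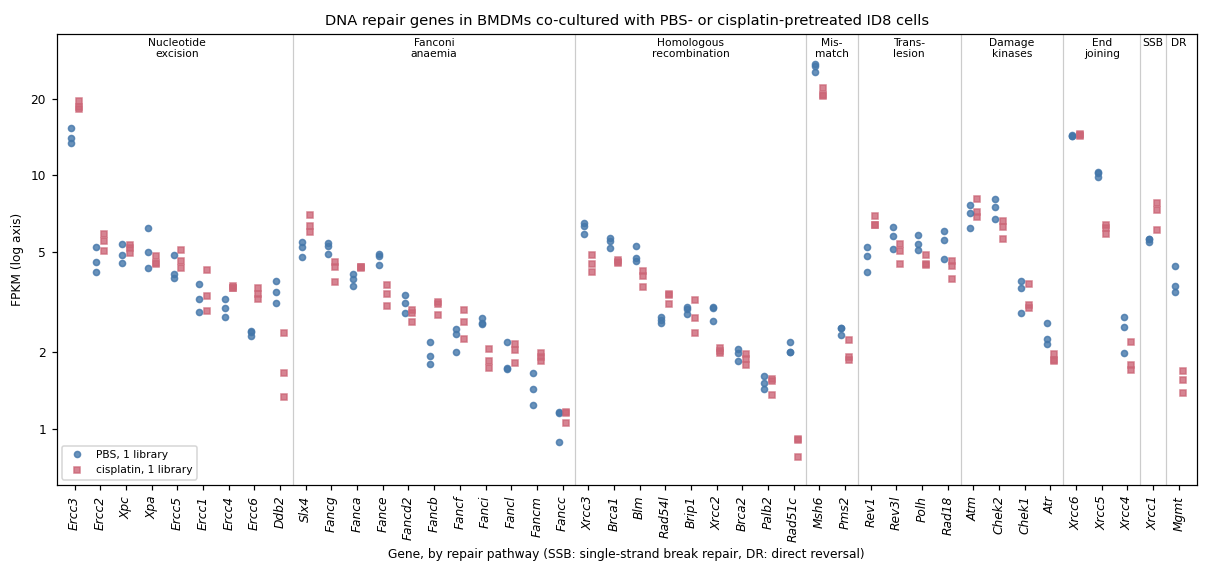
Level of each of the 44 repair genes in each library, in FPKM on a log axis, with PBS libraries as circles and cisplatin libraries as squares and the genes ordered by mean level within their pathway. All but 3 genes (Msh6, Ercc3 and Xrcc6) have means under 10 FPKM, and the groups stand furthest apart for Mgmt, Rad51c, Ddb2 and Xrcc5.

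Direct reversal had the largest change. Mgmt (ENSMUSG00000054612, chromosome 7, 136894614 to 137130266, GRCm38) encodes the methyltransferase that takes alkyl groups off guanine in a single step, a reaction that does not act on platinum links. It measured 3.65, 3.46 and 4.39 FPKM in the PBS libraries and 1.69, 1.56 and 1.38 FPKM in the cisplatin libraries. Every cisplatin library lay far below every PBS library, the mean going from 3.83 ± 0.49 to 1.54 ± 0.15 FPKM (mean ± SD of 3 libraries, log2 fold change -0.92, SE 0.097, limma adjusted p = 0.000142). On the deposited scale this mean was 40.2% of the PBS mean. The pseudocount of 1 shrinks the fitted change of genes at such levels.

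Among the members, homologous recombination had the most that were lower. Of its 9 members, 5 were lower, 1 was higher and 3 did not pass the adjusted p, where 35.1% of all genes tested were lower, with a median log2 fold change of -0.21. Of 19 other tested genes of homologous recombination, 8 were higher and 5 lower, with a median of 0.12 on the log2 scale. Rad51c (ENSMUSG00000007646, chromosome 11, 87376645 to 87404954) encodes a subunit of the complexes that help prepare broken DNA for strand exchange. Its level was 2.01, 2.20 and 2.0005 FPKM in the PBS libraries and 0.91, 0.90 and 0.77 FPKM in the cisplatin libraries. The groups were well apart, at 2.07 ± 0.11 against 0.863 ± 0.0775 FPKM (mean ± SD of 3 libraries, log2 fold change -0.72, SE 0.0845, limma adjusted p = 0.000255), although a single library held only 56 to 156 reads of this gene. Rad51c passed the filter through its 3 PBS libraries alone, and without the filter its limma adjusted p was 0.00238. Xrcc2 and Xrcc3, which encode related proteins, were lower as well. Xrcc3 (ENSMUSG00000021287, chromosome 12, 111803192 to 111813873), the partner of Rad51c in one of these complexes and the member of the pathway with the highest mean level, measured 6.29, 6.51 and 5.89 FPKM with PBS and 4.47, 4.16 and 4.87 FPKM with cisplatin. The lowest PBS library thus stayed above the highest cisplatin library (log2 fold change -0.40, SE 0.068, limma adjusted p = 0.00176). Xrcc2 went from 2.90 ± 0.20 to 2.03 ± 0.054 FPKM (mean ± SD of 3 libraries, limma adjusted p = 0.00334).

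The related genes Rad51d and Rad51b were not members and were looked up after these values were seen. Rad51d was lower (log2 fold change -0.28, limma adjusted p = 0.0204), a call that was lost in 6 of 15 other settings, and Rad51b did not reach the level required for testing. Among the other members of the pathway, Brca1, whose protein directs broken ends into recombination, was lower by 0.21 on the log2 scale (limma adjusted p = 0.0124), as was the helicase gene Blm by 0.24 (limma adjusted p = 0.0209). Both calls were lost with quantile normalisation and with scaling by the recovered reads, and that of Blm in 6 of 15 other settings in all, among them the fits without cisplatin replicate 2 or PBS replicate 2. Rad54l, encoding a motor protein of strand exchange, was higher (2.68 ± 0.069 to 3.29 ± 0.16 FPKM, mean ± SD of 3 libraries, limma adjusted p = 0.0179), with 15.4% of its exon bases shared with Lrrc41 on the other strand. This call was lost in 4 of 15 other settings, the replicate block and the fits without cisplatin replicate 1, cisplatin replicate 3 or PBS replicate 3. Brca2, its partner Palb2 and the helicase gene Brip1 did not pass, their 95% intervals reaching together from -0.29 to 0.18 on the log2 scale.

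Of the 11 members of the Fanconi anaemia pathway, 3 were higher, 3 lower and 5 did not pass, shares below the 32.9% and 35.1% of all genes tested, with a median log2 fold change of 0.061. Fancb (ENSMUSG00000047757, chromosome X, 164980592 to 164997272), a subunit of the core complex that attaches ubiquitin to FANCD2 and FANCI, had the largest rise of all members. It measured 1.80, 1.94 and 2.21 FPKM in the PBS libraries and 3.11, 2.82 and 3.17 FPKM in the cisplatin libraries. No library of one group reached the range of the other (1.98 ± 0.21 against 3.03 ± 0.19 FPKM, mean ± SD of 3 libraries, log2 fold change 0.44, SE 0.082, limma adjusted p = 0.00261). Slx4 (ENSMUSG00000039738, chromosome 16, 3979105 to 4003770), the scaffold for the nucleases that unhook a crosslink, had the highest level of the pathway, with 5.22, 5.48 and 4.76 FPKM under PBS and 6.005, 6.99 and 6.30 FPKM under cisplatin. All 3 cisplatin libraries were above the PBS libraries by a smaller margin (log2 fold change 0.27, SE 0.073, limma adjusted p = 0.0139).

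Within the core complex the subunits did not move together. Beside the rise of Fancb, Fance went from 4.71 ± 0.24 to 3.38 ± 0.31 FPKM (mean ± SD of 3 libraries, limma adjusted p = 0.00295) and Fancg from 5.18 ± 0.26 to 4.24 ± 0.39 FPKM (mean ± SD of 3 libraries, limma adjusted p = 0.0233). Fancm, whose protein anchors the complex to DNA, was higher (1.45 ± 0.21 to 1.92 ± 0.069 FPKM, mean ± SD of 3 libraries, limma adjusted p = 0.0411). Fanca, Fancc, Fancf and Fancl did not pass, with log2 fold changes between 0.040 and 0.14. Of the 2 proteins that the complex modifies, Fanci was lower (2.64 ± 0.079 to 1.88 ± 0.16 FPKM, mean ± SD of 3 libraries, limma adjusted p = 0.00582, lost with quantile normalisation at an adjusted p of 0.0661), and Fancd2 had a log2 fold change of -0.11 that did not pass (limma adjusted p = 0.239). Fanci shares 15.95% of its exon bases with Polg on the other strand. The calls of Fancg and Fancm were each lost in 8 of 15 other settings, the replicate block among them.

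Of the 9 members of nucleotide excision repair, 3 were higher, about the 32.9% of all genes tested, 1 was lower and 5 did not pass, with a median log2 fold change of 0.097. Of 19 other tested genes of this pathway, 6 were higher and 9 lower, with a median log2 fold change of 0.013. Their summed level was 462 to 470 FPKM under PBS and 377 to 382 FPKM under cisplatin. Rad23b alone (log2 fold change -1.42) fell by about as many FPKM as this sum, as its levels given below show. Ercc3 (ENSMUSG00000024382, chromosome 18, 32240300 to 32270151) encodes XPB, a helicase subunit of the transcription factor TFIIH that opens DNA around the lesion. It was the most abundant member of the pathway, at 13.5, 14.0 and 15.4 FPKM in the PBS libraries and 18.5, 19.7 and 18.3 FPKM in the cisplatin libraries. The groups did not overlap (14.3 ± 0.98 against 18.9 ± 0.72 FPKM, mean ± SD of 3 libraries, log2 fold change 0.38, SE 0.058, limma adjusted p = 0.000971). Ercc6, the gene of the CSB protein that detects stalled RNA polymerase, rose by a similar amount (2.39 ± 0.051 to 3.42 ± 0.175 FPKM, mean ± SD of 3 libraries, log2 fold change 0.38, limma adjusted p = 0.00154). Ercc4, which encodes the XPF nuclease, had a log2 fold change of 0.20 (limma adjusted p = 0.0320), lost in 7 of 15 other settings, namely no filter, the replicate block and each of the fits without 1 library except PBS replicate 2.

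Ddb2 (ENSMUSG00000002109, chromosome 2, 91211572 to 91236982) encodes the damage sensor that finds lesions outside transcribed strands. It measured 3.14, 3.82 and 3.46 FPKM in the PBS libraries and 1.65, 1.34 and 2.39 FPKM in the cisplatin libraries. Cisplatin replicate 3 lay closer to the PBS libraries than its fellows, yet below all of them (3.48 ± 0.34 against 1.79 ± 0.54 FPKM, mean ± SD of 3 libraries, log2 fold change -0.69, SE 0.145, limma adjusted p = 0.00443). Ddb2 shares 23.8% of its exon bases with Acp2 on the other strand, and whether strand entered the counting is not stated. The other sensor, Xpc, and the downstream genes Xpa, Ercc1, Ercc2 and Ercc5 did not pass, with 95% intervals that together reached from -0.40 to 0.41 on the log2 scale. Ercc2, the gene of the other TFIIH helicase, shares 42.7% of its exon bases with neighbouring genes and passed the adjusted p in 4 of 16 other settings.

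**Figure D2:**
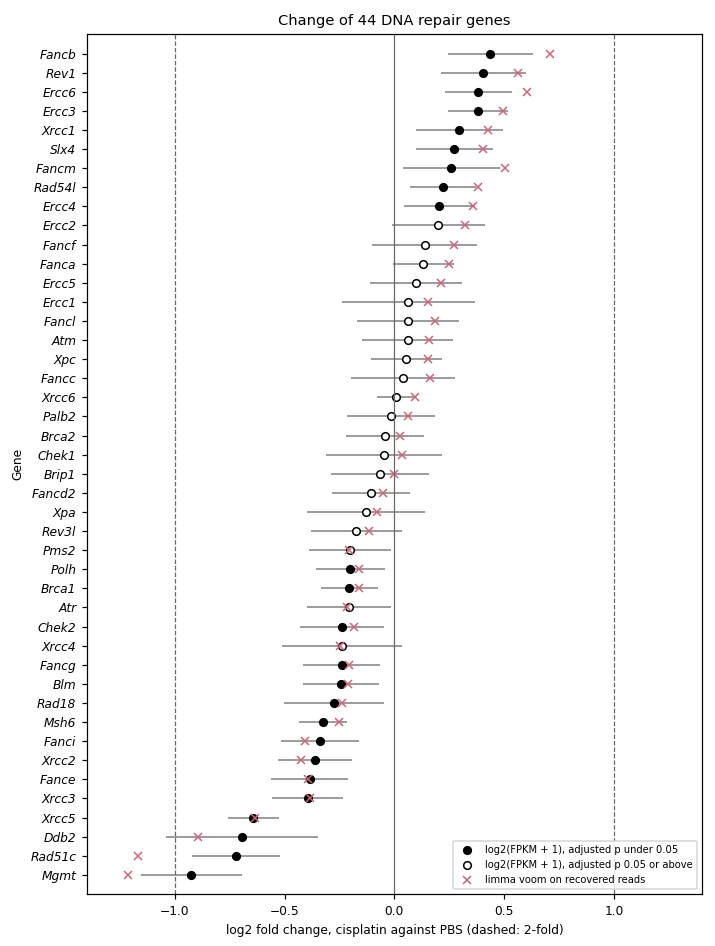
Log2 fold change of each repair gene, cisplatin against PBS, with circles and 95% intervals (not adjusted for the number of genes) on log2(FPKM + 1), filled where the adjusted p was under 0.05, and crosses for limma voom on the recovered reads. The circles run from -0.92 for Mgmt to 0.44 for Fancb and cross no dashed line, while the crosses of Mgmt and Rad51c lie beyond the lower line. The dashed lines mark a log2 fold change of 1 in size, which is a 2-fold change in level only for the crosses.

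In end joining, the genes of the Ku heterodimer, the ring that binds broken ends, behaved differently. Xrcc5 (ENSMUSG00000026187, chromosome 1, 72307421 to 72394952), which encodes Ku80, measured 9.89, 10.2 and 10.3 FPKM with PBS and 6.21, 6.36 and 5.85 FPKM with cisplatin. Replicates were tight and the groups far apart (10.1 ± 0.24 against 6.14 ± 0.26 FPKM, mean ± SD of 3 libraries, log2 fold change -0.64, SE 0.049, limma adjusted p = 2.94e-05), the smallest adjusted p of the 44. Xrcc6 (ENSMUSG00000022471, chromosome 15, 81987835 to 82040085), which encodes Ku70, measured 14.4, 14.3 and 14.5 FPKM with PBS and 14.5, 14.3 and 14.5 FPKM with cisplatin. Its groups overlapped, with a 95% interval of the log2 fold change from -0.080 to 0.091 (limma adjusted p = 0.902). Xrcc4, the scaffold of the ligase that seals the ends, had a log2 fold change of -0.24 and did not pass (limma adjusted p = 0.106).

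Msh6 (ENSMUSG00000005370, chromosome 17, 87975050 to 87990883), which encodes a subunit of the complex that recognises mispaired bases, was the most abundant member. It measured 27.0, 27.6 and 25.6 FPKM with PBS and 20.8, 20.5 and 22.1 FPKM with cisplatin. The groups were apart (log2 fold change -0.33, SE 0.047, limma adjusted p = 0.000713). Pms2, from the complex that cuts the mispaired strand, also had non-overlapping groups, at 2.34 to 2.51 and 1.87 to 2.23 FPKM, but narrowly missed the adjusted p (0.0565, limma).

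Of the translesion genes, Rev1 (ENSMUSG00000026082, chromosome 1, 38052786 to 38129801) was higher. It encodes the polymerase that gathers the other translesion polymerases at a blocked fork and measured 4.79, 5.21 and 4.15 FPKM with PBS and 6.92, 6.35 and 6.39 FPKM with cisplatin. The groups did not overlap (log2 fold change 0.40, SE 0.081, limma adjusted p = 0.00358). Rev1 shares 26.6% of its exon bases with Eif5b on the other strand. The ubiquitin ligase gene Rad18 and the polymerase eta gene Polh were lower by 0.28 and 0.20 on the log2 scale (limma adjusted p = 0.0365 and 0.0300), calls that were lost in 7 of 15 and 9 of 16 other settings. Rev3l, the catalytic subunit of polymerase zeta, did not pass (log2 fold change -0.17, limma adjusted p = 0.119).

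Of the 4 kinases that signal damage, 1 was lower by the adjusted p, where 35.1% of all genes tested were, and 3 did not pass. Atm (ENSMUSG00000034218, chromosome 9, 53439149 to 53536740), activated by breaks, measured 6.23, 7.67 and 7.12 FPKM with PBS and 7.14, 6.83 and 8.04 FPKM with cisplatin, and the groups overlapped (log2 fold change 0.060, 95% interval -0.15 to 0.27). Chek2 (ENSMUSG00000029521, chromosome 5, 110839979 to 110874145), which acts downstream of ATM, measured 7.51, 6.72 and 8.04 FPKM with PBS and 6.58, 5.60 and 6.23 FPKM with cisplatin. It was lower by a small margin (log2 fold change -0.24, SE 0.081, limma adjusted p = 0.0345), and the call was lost in 8 of 16 other settings. Atr, which responds to stalled forks, had every PBS library above every cisplatin library (2.35 ± 0.23 against 1.89 ± 0.065 FPKM, mean ± SD of 3 libraries) but missed the adjusted p (log2 fold change -0.21, limma adjusted p = 0.0531), which it passed with voom (limma voom adjusted p = 0.0124). Its effector Chek1 did not pass (log2 fold change -0.048).

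Xrcc1 (ENSMUSG00000051768, chromosome 7, 24546289 to 24573440), the scaffold of single-strand break repair, rose. It measured 5.61, 5.44 and 5.58 FPKM with PBS and 6.11, 7.30 and 7.79 FPKM with cisplatin. Cisplatin replicate 1 was the nearest to the tight PBS group and stood above it (log2 fold change 0.30, SE 0.083, limma adjusted p = 0.0168). Without cisplatin replicate 2 or 3 the adjusted p exceeded 0.05, the larger being 0.0550.

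Low levels weigh on this picture because the scale compresses them. When the reads behind the values were tested with limma voom, Mgmt (log2 fold change -1.22, limma voom adjusted p = 3.44e-06) and Rad51c (log2 fold change -1.17, limma voom adjusted p = 6.82e-06) passed the fold threshold and no other member did, where 23.0% of all genes tested were called. Voom moved the median of all genes to 0.085, and that of the members to 0.012. The 95% voom interval lay within a 2-fold change for 40 members.

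Of the 44 members, 38 had a promoter in the RefSeq table of GRCm38.p6, taken as the start nearest the start of the deposited gene and running from 250 bases before to 50 bases after it. Each was searched on both strands for words bound by the E2F factors, which drive genes of DNA replication, and for the CHR element of cell cycle genes. An E2F word was TTCCCGC, or with other middle letters it was TTGGCGC, and the remaining forms searched were TTCGCGC and, last of these, TTGCCGC. These share letters and can overlap. A CHR word was TTTGAA or its close variant TTCGAA. An E2F word was held by 20 of the 38 promoters, or 52.6%, against 17.4% of 9332 promoters of tested genes and 9.57% of all 32851 promoters in the table. A CHR word was held by 2 of the 38, or 5.26%, against 14.0% and 19.2%. Of the 20 members with an E2F word, 2 were higher, 7 lower and 11 did not pass, and of the 18 without it, 6 were higher, 6 lower and 6 did not pass, beside the 32.9% higher and 35.1% lower of all genes tested. The median log2 fold changes were -0.057 and 0.011. A word in a window is a description and not a binding site.

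The promoters of the members with the largest falls, Mgmt (chr7:136894336-136894635, plus strand) and Rad51c (chr11:87404905-87405204, minus strand), and with the largest rises, Fancb (chrX:164980342-164980641, plus strand) and Rev1 (chr1:38129617-38129916, minus strand), are shown because they mark the ends of the range of change on log2(FPKM + 1). On the deposited scale Ercc6, at 143.1% of its PBS mean, rose more than Rev1, at 138.9%, as it did with a pseudocount of 0.1, TPM, quantile normalisation and voom. Capitals mark E2F words on either strand.
Mgmt: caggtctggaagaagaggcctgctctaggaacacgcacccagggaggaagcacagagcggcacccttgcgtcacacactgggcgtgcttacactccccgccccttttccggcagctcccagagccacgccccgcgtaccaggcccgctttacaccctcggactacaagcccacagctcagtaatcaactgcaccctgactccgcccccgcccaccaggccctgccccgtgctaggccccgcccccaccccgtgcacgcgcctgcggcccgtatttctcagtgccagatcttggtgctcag
Rad51c: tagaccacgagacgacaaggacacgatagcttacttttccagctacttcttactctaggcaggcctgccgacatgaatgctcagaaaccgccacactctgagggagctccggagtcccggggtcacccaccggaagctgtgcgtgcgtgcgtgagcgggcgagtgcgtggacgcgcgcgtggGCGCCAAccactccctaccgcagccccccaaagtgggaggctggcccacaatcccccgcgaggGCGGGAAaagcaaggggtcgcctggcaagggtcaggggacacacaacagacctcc
Fancb: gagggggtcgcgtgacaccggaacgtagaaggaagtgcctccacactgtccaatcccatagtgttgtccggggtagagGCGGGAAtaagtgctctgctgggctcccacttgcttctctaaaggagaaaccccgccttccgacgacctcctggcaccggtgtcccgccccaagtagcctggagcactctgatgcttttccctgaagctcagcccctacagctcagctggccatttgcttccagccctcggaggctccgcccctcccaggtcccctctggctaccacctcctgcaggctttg
Rev1: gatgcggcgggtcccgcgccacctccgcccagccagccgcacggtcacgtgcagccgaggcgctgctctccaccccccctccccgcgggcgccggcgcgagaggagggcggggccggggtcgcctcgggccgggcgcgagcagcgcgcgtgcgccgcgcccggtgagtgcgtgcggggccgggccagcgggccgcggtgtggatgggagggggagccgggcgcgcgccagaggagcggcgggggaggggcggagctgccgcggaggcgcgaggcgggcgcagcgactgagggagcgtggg
Rad51c held 2 such words and Fancb 1, so that a gene that fell and a gene that rose both carried them, and Mgmt and Rev1 held none. None of the 4 windows held a CHR word.

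Many of these proteins work as pairs, and the ratio of the partners' FPKM was followed in each library for 10 pairs chosen after the data were seen. The ratios hold no pseudocount, so their changes are not on the scale of the limma log2 fold changes, which are on log2(FPKM + 1). In 5 of the 10 pairs the ratios of the groups did not overlap, where the levels of 72.4% of all single genes tested did not. With 3 libraries against 3 the smallest p of the exact permutation test (two-sided) is 0.1, so that none could pass, and it was 0.1 for those 5 (0.2 after Benjamini-Hochberg adjustment over the 10). The ratio of the Ku genes, Xrcc5 to Xrcc6, fell by 0.73 on the log2 scale, from -0.50 ± 0.032 to -1.23 ± 0.073 (mean ± SD of 3 libraries). Rad51c to Xrcc3 fell by 0.79 and Xrcc4 to Lig4, the ligase it holds, by 1.19. The ratio of Rev3l to Mad2l2, the other part of polymerase zeta, was higher by 0.85 and that of Xpc to Rad23b, which steadies the XPC protein, by 1.497. In both pairs the partner was lower (Mad2l2 log2 fold change -0.89, limma adjusted p = 0.000324, and Rad23b -1.42), while Rev3l and Xpc themselves did not pass. In the pair of Xrcc4, which did not pass either, Lig4 was higher (log2 fold change 0.65, limma adjusted p = 0.000769). Fanci to Fancd2, Ercc4 to Ercc1, Brca1 to Bard1, Atr to Atrip and Ercc2 to Ercc3 overlapped.

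**Figure D3:**
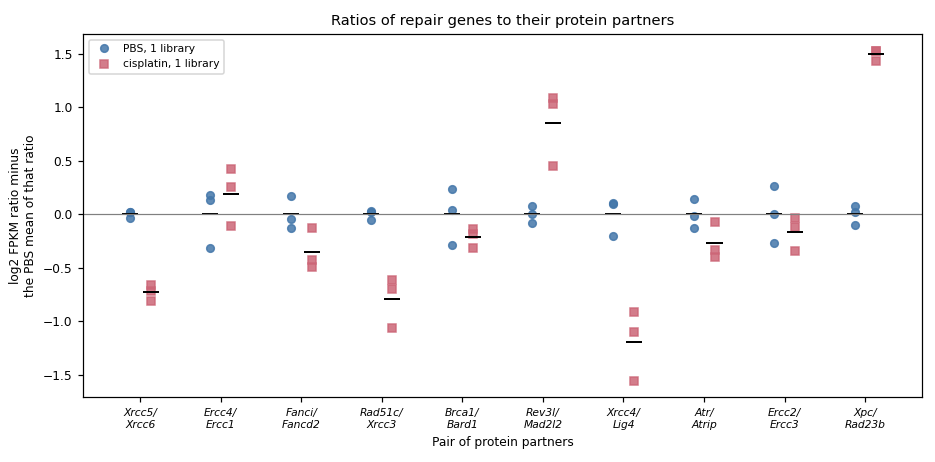
Log2 ratio of each repair gene to the gene of its protein partner in each library, set to a mean of 0 in the PBS libraries, with black bars for group means. The ratios of 5 pairs do not overlap between groups, among them Xrcc5 to Xrcc6 at a mean of -0.73, whereas those of the other 5 pairs overlap.

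The wider repair machinery was read from a further 118 genes, of which 116 were tested. By the adjusted p, 35 were higher and 38 lower, close to the 32.9% and 35.1% of all genes tested, with a median of 0.0026 on the log2 scale. The fold threshold was passed as well by 2 that were higher and 1 that was lower, against 15.9% of all genes tested. Rad23b fell from 146 ± 4.37 to 54.2 ± 0.68 FPKM (mean ± SD of 3 libraries, log2 fold change -1.42, limma adjusted p = 1.62e-07). Gtf2h1, a TFIIH subunit like Ercc3, rose from 20.3 ± 1.2999 to 48.7 ± 0.86 FPKM (mean ± SD of 3 libraries, log2 fold change 1.22, limma adjusted p = 1.65e-06). Apex1, which cuts DNA at sites that have lost a base, rose from 5.03 ± 0.73 to 11.98 ± 1.04 FPKM (mean ± SD of 3 libraries, log2 fold change 1.11, limma adjusted p = 6.97e-05).

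Proliferation genes, which share much of their timing with recombination and Fanconi genes in dividing cells, gave no common direction. Of 32 tested, 12 were higher and 9 lower by the adjusted p, where 32.9% and 35.1% of all genes tested were, with a median of -0.014 on the log2 scale and a summed level of 597 to 616 against 570 to 586 FPKM. Targets of p53, the transcription factor that DNA damage activates, were higher in 8 of 15 cases and lower in 1, beside the same 32.9% and 35.1%, with a median of 0.25. Mdm2, the feedback inhibitor of p53, went from 35.9 ± 1.12 to 84.3 ± 5.30 FPKM (mean ± SD of 3 libraries, log2 fold change 1.21, limma adjusted p = 1.88e-06) and Ccng1 from 41.8 ± 2.27 to 87.8 ± 6.01 FPKM (mean ± SD of 3 libraries, log2 fold change 1.05, limma adjusted p = 7.85e-06), while Cdkn1a did not pass (log2 fold change -0.095, limma adjusted p = 0.118).

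**Figure D4:**
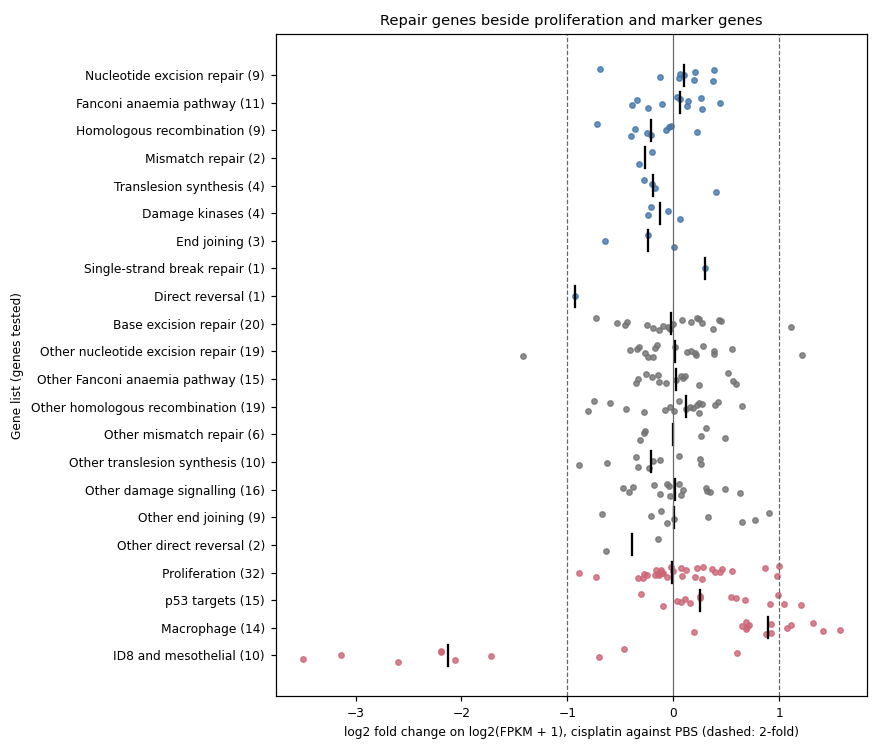
Log2 fold change on log2(FPKM + 1) of every tested gene of each list, cisplatin against PBS, with black bars at the medians, the 44 members in blue, other repair genes in grey and proliferation and marker genes in red. Repair and proliferation lists lie around 0, with Rad23b at -1.42 the farthest repair gene, whereas the medians of macrophage and ID8 lists are 0.90 and -2.13.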

How the data were processed

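The deposited table holds FPKM values of 54532 mouse genes in 6 libraries, which the authors computed from read counts per gene. The labels' processing notes name fastp, HISAT2 2.0.5, featureCounts 1.5.0-p3 and mm10, while the methods name LifeScope for mapping, and whether counting used strand is not given in the sources used here. No value column was left unmapped.

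Members were matched by symbol. The members and the gene lists were chosen with earlier results of these data known. log2(FPKM + 1) was fitted with limma 3.58.1 in R 4.3.3 (lmFit, eBayes with a trend) for genes with at least 1 FPKM in at least 3 libraries, 13441 in all, and p-values were adjusted by Benjamini-Hochberg over all of them. The rule for genes given with all values took, in each pathway, the member with the largest log2 fold change in size and the one with the highest mean FPKM. Values worth under 200 reads were whole multiples of 1 read in 100% of cases (tolerance 0.05), and the recovered reads, 15776238 to 17924686 per library, were tested with limma voom as an alternative. The fit was also run on simulated reads with known fold changes, and the outcome is not reported here. Of the 44 members, 22 share exon bases with another gene in the annotation, 9 of them over 10%. Coordinates are those of the deposited table (GRCm38), and 43 members have the same ones in GENCODE M21. Sequences are from RefSeq. Alternatives covered pseudocount, filter, scaling, replicate block and each library left out. Some genes of these pathways are not reported here.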

Additional observations from a re-analysis of the deposited data

How the results depend on the processing

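Of the 24 repair genes past the adjusted p, 13 kept their call in each of the 15 or 16 other settings that tested them at this threshold. limma treat, which tests against the fold of 2 instead, called 0 of the 44. The 13 that kept their call were Ercc3, Ercc6, Fancb, Slx4 and Rev1, which were higher, and Ddb2, Fance, Rad51c, Xrcc2, Xrcc3, Msh6, Xrcc5 and Mgmt, which were lower. The other 11 lost it in at least 1 setting, and none of the 24 changed direction. Of the 20 members that did not pass, 6 passed in at least 1 setting. With a pseudocount of 0.1, TPM or voom, 2 members (Mgmt and Rad51c) were lower by the fold and adjusted p together, against 0. Dropping the fold requirement gave 9 higher and 15 lower. By the adjusted p alone the members higher numbered 4 and the members lower 6 when 5 FPKM in 3 libraries was required, because only 15 members were then tested. The members lower numbered 8 with quantile normalisation and 9 with scaling by the recovered reads, while the lower calls over all genes went from 4721 to 4006 and 4201. Leaving out 1 library gave 5 to 9 higher, the fewest without cisplatin replicate 3, and 11 to 14 lower, the fewest without cisplatin replicate 2.

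The median log2 fold change of the members, -0.057, was -0.075 with a pseudocount of 0.1, 0.0054 with the 5 FPKM requirement, -0.076 with TPM, 0.077 with quantile normalisation, 0.012 with voom and 0.0065 with scaling by the recovered reads, and -0.115 to -0.044 with 1 library left out, where the value farthest from it came without cisplatin replicate 1. The last 3 scalings moved the median of all genes to 0.10, 0.085 and 0.073. The deposited FPKM were scaled to 97.4 to 98.7% of the recovered reads in the PBS libraries and 103.7 to 104.1% in the cisplatin libraries. The cause was not tested. Among all genes, 628 were called higher and 1514 lower by fold and adjusted p, 1227 and 1862 with voom, 973 and 1981 with a pseudocount of 0.1, 443 and 1061 with the 5 FPKM requirement, and 240 and 982 with limma treat.

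Direction changed for some members that did not pass. The log2 fold change of Xrcc6 was -0.0015 with TPM. With quantile normalisation it was 0.10 for Chek1, 0.048 for Fancd2, 0.088 for Brip1, 0.12 for Brca2 and 0.13 for Palb2, with voom 0.036 for Chek1, 0.025 for Brca2 and 0.062 for Palb2, and with scaling by the recovered reads 0.019 for Chek1, 0.015 for Brca2 and 0.036 for Palb2. With 1 library left out in turn, the values of several members spanned 0. They ran from -0.052 to 0.16 for Ercc1, from -0.15 to 0.011 for Brip1, from -0.042 to 0.021 for Palb2, from -0.012 to 0.12 for Atm, from -0.026 to 0.074 for Fancc and from -0.14 to 0.018 for Chek1.

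Whether the replicate numbers 1 to 3 pair the libraries is not stated. The deviations of same-numbered libraries correlated at -0.10, -0.086 and -0.024, so no shared variation was seen, which cannot settle how the cultures were set up. With the replicate block, 6 members were higher and 12 lower by the adjusted p, and 0 passed the fold as well, while over all genes 4146 were higher and 4485 lower by the adjusted p, and 625 and 1515 by the fold as well. Single libraries held as few as 53 reads of a member.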
